A study of Mus musculus with 13 samples.

Results

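Molecular chaperones bind unfolded or partly folded proteins and help them reach or keep their native shape. The HSP70 proteins (Hspa genes) hold short exposed stretches in a cycle driven by ATP, and the J-domain proteins (Dnaja, Dnajb and Dnajc genes) deliver clients to them and start the ATP step. HSP90 completes the folding of kinases and receptors, HSP60 and HSP10 form the folding chamber of mitochondria, small HSPs (Hspb genes) hold aggregating proteins, and TRiC, a ring chaperonin built from Tcp1 and the Cct subunits, folds actin and tubulin. An oocyte stops transcription before it resumes meiosis, so the passage from the germinal vesicle (GV) stage to metaphase II (MII) runs on stored mRNAs, some of which are translated more and others degraded.

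The genes described here are the protein-coding mouse genes whose symbol starts with Hspa, Hspb, Hspd, Hspe, Hsp90, Dnaja, Dnajb or Dnajc or names a subunit Cct2 to Cct8, plus Tcp1. Of 22442 genes listed in the Ribo-seq libraries, 82 met this rule, and the same 82 were listed in the acRIP-seq libraries. They comprised 28 Dnajc, 13 Dnajb, 4 Dnaja, 13 HSP70, 3 HSP90, 8 small HSP and 9 TRiC genes, Hspd1 and Hspe1, and the HSP-binding proteins Hspbp1 and Hspbap1. Cct6a encodes a TRiC subunit but is a processed transcript in the annotation used, so it fell outside the rule. It had 47 counts over the WT GV and 8 over the Nat10-ZcKO MII libraries.

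Ribo-seq counted the short RNA fragments that ribosomes shield from RNase I on coding sequences (footprints) in 3 WT GV, 3 Nat10-ZcKO GV, 2 WT MII and 3 Nat10-ZcKO MII libraries. In Nat10-ZcKO mice, Zp3-Cre, which is active in the growing oocyte from the primary follicle on, deletes a floxed Nat10, the enzyme that writes N4-acetylcytidine (ac4C) on RNA. WT mice kept Nat10. Each Ribo-seq library pooled about 100 oocytes. acRIP-seq counted fragments of WT GV oocyte mRNA, from C57BL/6J mice, in 1 anti-ac4C and 1 IgG library of about 2000 oocytes each. The methods describe GV oocytes of 21-day-old females given PMSG, and PMSG followed by hCG for superovulation, and do not say which route gave the MII oocytes. The series text also names tamoxifen for 3 days, without saying which mice received it. The labels do not say that replicates came from separate females, so p-values measure only the spread between these libraries. A footprint count rises with the amount of an mRNA and with its translation, which these data cannot tell apart.

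The libraries were shallow and uneven, from 42360 to 279464 counts in 10 of them and 4815 in WT MII replicate 2. In that library a count of 0 still allows 623 counts per 1000000 counts (CPM), against 10.7 to 70.8 CPM in the others. It held 5 chaperone counts, 4 on Hspa1l and 1 on Dnajc7. The 12 oocyte markers, such as Zp3 and Gdf9, made up 5.69% to 7.70% of counts in WT GV, 1.14% to 1.36% in the MII libraries other than WT MII replicate 2 (0.0208%), and in replicates 1, 2 and 3 of Nat10-ZcKO GV 0.0142%, 1.51% and 11.1%. The 16 adipocyte markers made up 1.71% and 0.381% in Nat10-ZcKO GV replicates 1 and 2, and at most 0.0608% in libraries other than WT MII replicate 2. In WT MII replicate 2 they made up 0.166%, all of it on 1 marker. Nat10-ZcKO GV replicate 1 held counts on all 16 markers and replicate 2 on 13. Adipoq, Cidec, Lep and Retn were at 0 in WT GV, and none was at 0 over the Nat10-ZcKO GV libraries. The 15 granulosa or cumulus markers reached 0.689% and the 10 smooth muscle markers 0.465% in Nat10-ZcKO GV replicate 1, above their WT GV ranges of 0.234% to 0.336% and 0.0666% to 0.0984%. These libraries, Nat10-ZcKO GV replicates 1 and 2 and WT MII replicate 2, therefore stand apart, and the results below are given with and without them. The part of other cells in the chaperone values was not tested. Nat10 had 3 to 11 counts in WT GV, 1 to 5 in Nat10-ZcKO GV and in WT MII, and 2 to 6 in the MII libraries of Nat10-ZcKO. Scaled to depth, it had at least 31.2 CPM in WT GV. In Nat10-ZcKO GV it had 94.4 CPM in replicate 1 and at most 19.3 CPM in replicates 2 and 3. Without replicate 1, Nat10 was thus lower in Nat10-ZcKO GV, on 1 and 5 counts. At MII it had 7.42 and 1038 CPM in WT, on both sides of the 12.5 to 31.9 CPM of Nat10-ZcKO. Over all libraries its footprints did not separate the genotypes.

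Chaperone genes took a larger share of footprints at the GV stage than at MII. The 82 genes received 0.930%, 1.07% and 1.09% of footprints in the WT GV libraries, a mean of 1.03% ± 0.0866 (SD, n = 3). In Nat10-ZcKO GV they received 1.21%, 0.783% and 1.05%, a mean of 1.01% ± 0.215 (SD, n = 3). In Nat10-ZcKO MII the share was 0.720%, 0.547% and 0.534%, a mean of 0.600% ± 0.104 (SD, n = 3). WT MII replicate 1 had 0.563%, with an exact 95% binomial interval of 0.524% to 0.604%. WT MII replicate 2 had 0.104%, with an interval of 0.0337% to 0.242%. Every MII library was below every GV library, the nearest pair being Nat10-ZcKO GV replicate 2 at 0.783% and Nat10-ZcKO MII replicate 1 at 0.720%, whose intervals (0.709% to 0.863% and 0.682% to 0.759%) overlap. The genotypes overlapped within each stage. These are shares of counts. After TMM scaling, described below, the stages overlapped in Nat10-ZcKO.

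**Figure D1:**
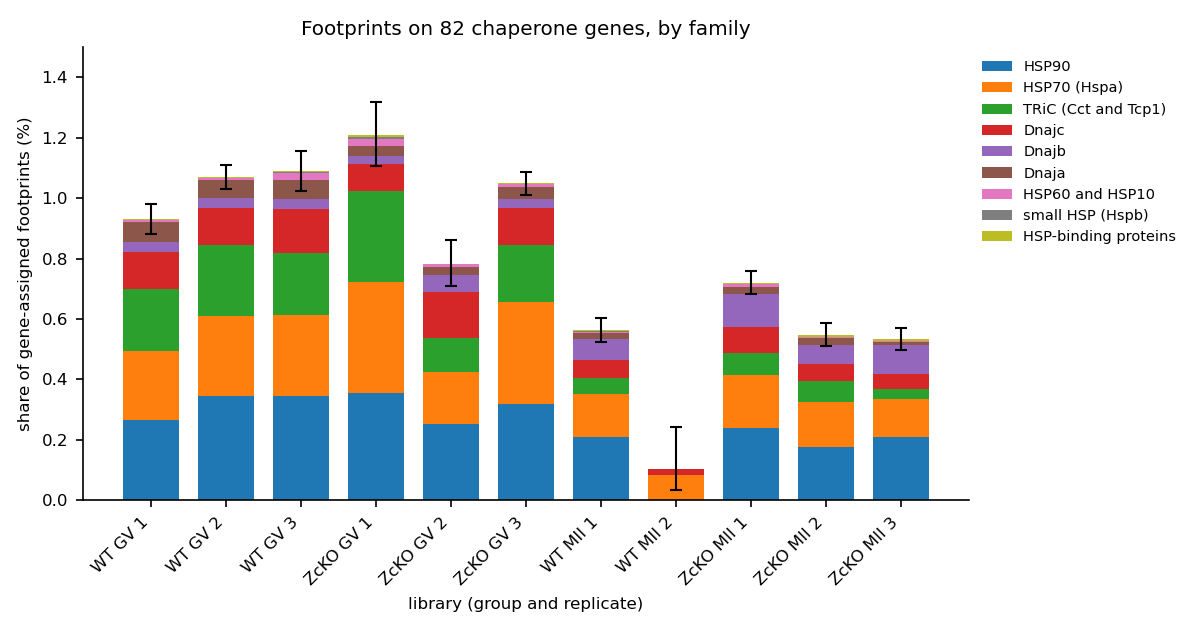
Share of gene-assigned footprints (%) on the 82 chaperone genes in each of the 11 Ribo-seq libraries, stacked by family, with the exact 95% binomial interval of the total. GV libraries reach 0.783% to 1.21% and MII libraries 0.104% to 0.720%; the TRiC layer is thinner and the Dnajb layer, through Dnajb4, thicker in the MII libraries other than WT MII 2, which holds 5 chaperone counts.

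The families moved unequally between stages. TRiC genes had 0.203%, 0.234% and 0.206% of footprints in WT GV and 0.0534% in WT MII replicate 1. They had 0.300%, 0.110% and 0.192% in Nat10-ZcKO GV and 0.0750%, 0.0682% and 0.0344% in Nat10-ZcKO MII. Dnajb genes together went the other way, with 0.0330%, 0.0340% and 0.0333% in WT GV, 0.0697% in WT MII replicate 1. They had 0.0236%, 0.0541% and 0.0274% in Nat10-ZcKO GV, and their Nat10-ZcKO MII shares were 0.109%, 0.0627% and 0.0952%. The higher share at MII was that of Dnajb4, which held 69 of 94 Dnajb counts in WT MII replicate 1. The other 12 Dnajb genes had 0.0220% to 0.0265% in WT GV and 0.0185% in WT MII replicate 1, and 0.0202% to 0.0503% in Nat10-ZcKO GV and 0.00376% to 0.0176% in Nat10-ZcKO MII. HSP70 genes had 0.255% ± 0.0223 in WT GV and 0.149% ± 0.0235 in Nat10-ZcKO MII (SD, n = 3 each). HSP90 genes had 0.319% ± 0.0450 and 0.209% ± 0.0313. Small HSPs were close to absent, with 14 counts over 11 libraries.

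Of the 82 genes, 70 had at least 1 count in some library, 52 had at least 10 counts over the 11 libraries, and a single library held counts on 2 to 55 of them. The 12 without a count were Cct6b, Cct8l1, Dnajb7, Dnajb8, Dnajc12, Dnajc22, Dnajc5b, Dnajc5g, Dnajc6, Hspb3, Hspb7 and Hspb9. For levels compared between genes, counts were scaled per length of coding sequence, as TPM, which sums to 1000000 over all genes of a library.

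The leading chaperones of the GV oocyte were those of the endoplasmic reticulum (ER). Hspa5, the HSP70 of the ER lumen, was highest at 1286 ± 104 TPM in WT GV, followed by Hsp90b1, the ER form of HSP90, at 862 ± 152 TPM. Dnajc9, a co-chaperone that also binds histones H3 and H4, followed at 637 ± 139 TPM and Hsp90ab1, the constitutive cytosolic HSP90, at 605 ± 106 TPM (SD, n = 3 each). The values of Dnajc9 and Hsp90ab1 overlap. Next came Dnaja2, a cytosolic J-domain partner of HSP70, at 373 ± 62.6 TPM, and then Cct2, Hsp90aa1, Cct5 and Cct8 between 306 and 336 TPM, also closer to each other than their SDs. In Nat10-ZcKO MII the order began with Dnajb4 at 981 ± 314 TPM, Hsp90ab1 at 735 ± 212 TPM and Hspa5 at 672 ± 134 TPM (SD, n = 3 each), which overlap. Dnajb4 had ranked 18 in WT GV. Hspa5, Hsp90b1 and Hsp90ab1 together took 43.2% to 45.4% of chaperone footprints in the WT GV libraries, 44.9% to 52.9% in Nat10-ZcKO GV, 54.4% in WT MII replicate 1 and 45.2% to 56.7% in Nat10-ZcKO MII.

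**Figure D2:**
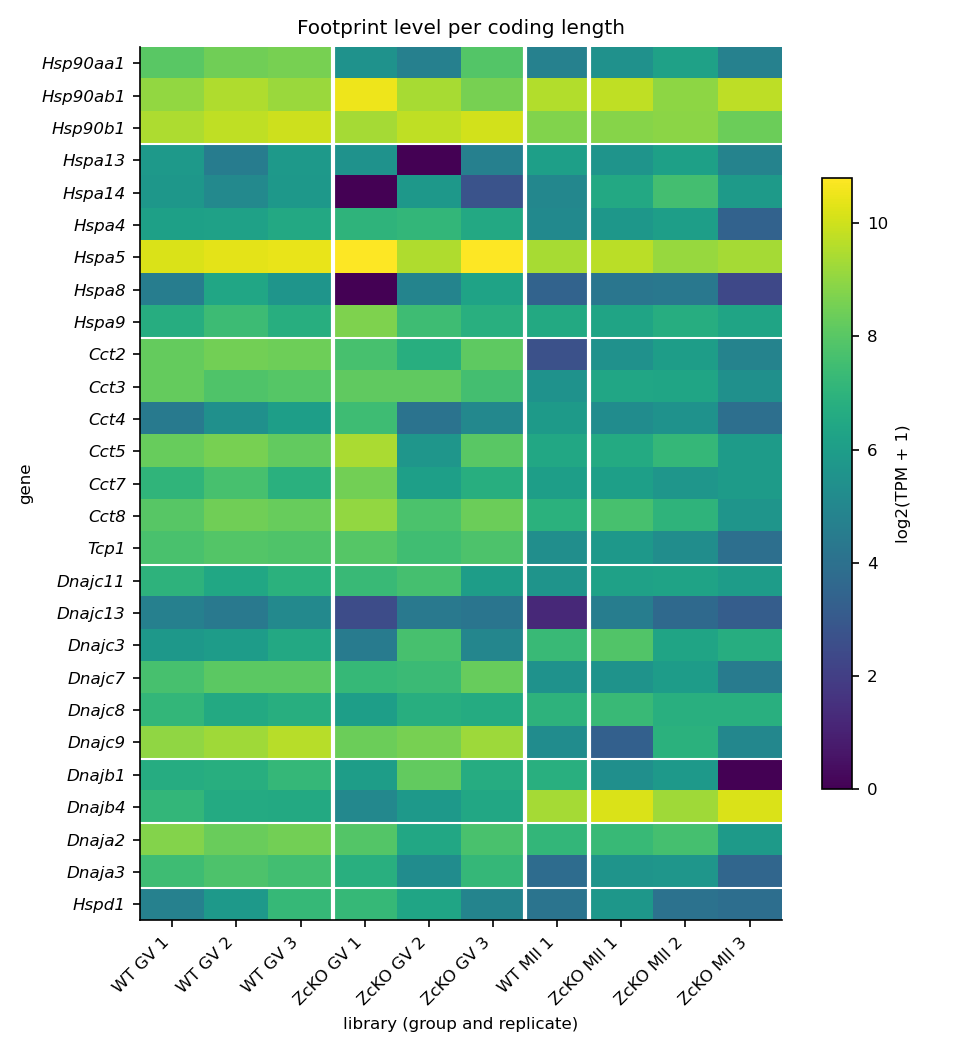
Footprint level per coding length, as log2(TPM + 1), of the 27 chaperone genes named by the rule in the methods that had at least 50 counts over the 11 libraries, in the 10 Ribo-seq libraries other than WT MII 2; rows are ordered by family and columns by group. Hspa5, Hsp90b1 and Hsp90ab1 are high in every column shown, Dnajb4 is high in the MII columns, and Tcp1, Cct2, Cct3, Dnajc7 and Dnajc9 are low there.

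Hspa5 and Hsp90b1 share a promoter element. The ER stress element, through which unfolded protein in the ER raises transcription, is CCAAT and CCACG separated by 9 bases, and was searched on both strands of RefSeq promoters (GRCm38.p6, 250 bases before to 50 after a start site). It was found in 39 of 32851 promoters (0.119%), and among the 67 chaperone genes with a promoter in that set only in Hspa5, Hsp90b1 and Dnajc3. Dnajc3 encodes an ER co-chaperone that also inhibits the kinase PERK. These windows, with the fixed bases of the element in capitals, are shown because their 3 genes did not move together between stages.
Hspa5, chr2:34772005-34772063, plus strand: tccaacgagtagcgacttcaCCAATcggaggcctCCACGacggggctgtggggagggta
Hsp90b1, chr10:86705618-86705676, minus strand: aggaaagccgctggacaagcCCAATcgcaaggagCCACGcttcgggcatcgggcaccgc
Hsp90b1, chr10:86705513-86705571, plus strand, opposite to the gene: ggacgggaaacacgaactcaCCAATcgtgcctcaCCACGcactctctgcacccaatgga
Dnajc3, chr14:118937807-118937865, plus strand: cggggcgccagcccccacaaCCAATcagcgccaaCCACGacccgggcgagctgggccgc

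The stage comparison asked how footprints differ between MII and GV oocytes of one genotype. Dnajb4, a cytosolic J-domain co-chaperone of HSP70, had the clearest rise. It had 110.0, 75.1 and 72.8 CPM in WT GV and 512 CPM in WT MII replicate 1. It had 23.6, 38.7 and 72.2 CPM in Nat10-ZcKO GV and 915, 463 and 914 CPM in Nat10-ZcKO MII. All MII libraries but WT MII replicate 2 lay above all GV libraries, and the 0 counts of that replicate allow up to 623 CPM. In Nat10-ZcKO, Dnajb4 rose by 3.52 ± 0.81 on the log2 scale (± SE; edgeR quasi-likelihood test, adjusted p = 0.0201), and by 3.10 ± 0.64 without Nat10-ZcKO GV replicates 1 and 2 (adjusted p = 1.5e-05). In WT the log2 difference was 2.18 ± 1.19 with both MII libraries (adjusted p = 0.256), and it rose by 2.64 ± 0.37 without WT MII replicate 2 (adjusted p = 2.8e-05).

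In Nat10-ZcKO, 22 of the 82 genes passed the filter on low counts, and 1 (Dnajb4) rose while 5 fell at an adjusted p under 0.05. Over all 2225 genes tested, 9.98% rose and 6.56% fell. The median log2 difference of the 22 was -1.46, and that of all genes tested -0.12. Without overlap between the stages, 8 of the 22 were lower and 3 higher at MII, against 13.8% and 28.6% of all genes tested. The 5 that fell were Tcp1, Cct2, Cct3, Dnajc7 and Dnajc9. Leaving out any 1 of the 3 Nat10-ZcKO MII libraries ended all 6 calls, and leaving out Nat10-ZcKO GV replicates 1 and 2, whose lone partner is then assumed to vary as the MII libraries do, gave 3 higher and 13 lower of 27 (all genes: 19% higher and 19.6% lower). The 3 were Dnajb4, Dnajc3 (1.82 ± 0.72, adjusted p = 0.0333) and Hspa14, and the 13 were Tcp1, Cct2, Cct3, Cct5, Cct8, Dnaja3, Dnajc7, Dnajc9, Hsp90aa1, Hsp90b1, Hspa4, Hspa5 and Hspa8.

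In WT, 25 genes passed the filter and none was called by edgeR, which called 0.293% of 2045 genes higher and 0% lower. An unadjusted p under 0.05 was reached by 5 of the 25, all lower at MII, beside 22.4% of all genes tested, and DESeq2 called 17 of the 25 lower, beside 41.3% of all genes. The median log2 difference was -1.46 for the 25 and -0.67 for all genes tested with edgeR, and -2.39 and -1.58 with DESeq2. Without WT MII replicate 2, edgeR tested 27 chaperone genes, of which 2 rose and 13 fell, where 20.9% and 23.9% of all 3264 genes did. This fit has 1 MII library, assumed to vary as the GV libraries do. The median was then -1.25 for the 27 and -0.35 for all genes. WT and Nat10-ZcKO libraries are separate, and 20 of the 21 genes tested in both stage fits had the same sign (WT without MII replicate 2), as 82.6% of the 2061 genes tested in both did.

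**Figure D3:**
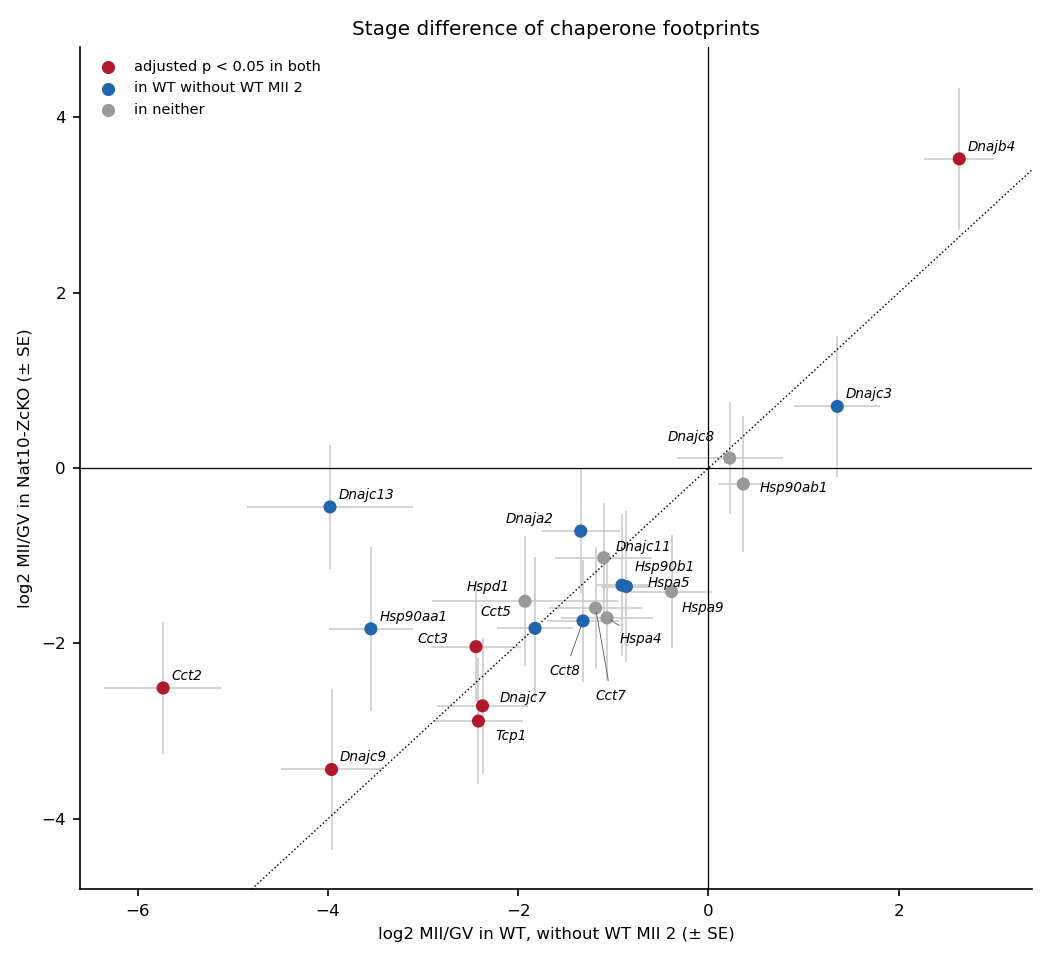
Log2 difference in footprints between MII and GV, with SE, in WT without WT MII 2 (x axis) against Nat10-ZcKO (y axis) for the 21 chaperone genes tested in both fits; the dotted line marks equal values. Dnajb4 lies at 2.64 and 3.52, 5 genes (Cct2, Cct3, Dnajc7, Dnajc9 and Tcp1) are lower with adjusted p under 0.05 in both, and Hsp90ab1 lies at 0.37 and -0.18.

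Of the 9 TRiC genes, Tcp1, Cct2 and Cct3 fell in both genotypes (in WT without MII replicate 2), Cct5 and Cct8 fell in WT in that fit, Cct7 passed in neither, and Cct4 was not called in WT and had too few counts for the Nat10-ZcKO fit. Tcp1, the alpha subunit of the ring, had 275, 318 and 291 CPM in WT GV and 51.9 CPM in WT MII replicate 1. It had 307, 213 and 303 CPM in Nat10-ZcKO GV and 69.2, 47.7 and 18.8 CPM in Nat10-ZcKO MII. The stages did not overlap in Nat10-ZcKO, nor in WT for MII replicate 1, while the 0 counts of WT MII replicate 2 allow up to 623 CPM. Tcp1 fell by 2.88 ± 0.72 on the log2 scale in Nat10-ZcKO (adjusted p = 0.0242).
Cct2, the beta subunit, had 419, 490.2 and 458 CPM in WT GV and 7.42 CPM, or 1 count, in WT MII replicate 1. In Nat10-ZcKO it went from 260, 135 and 386 CPM in GV to 58.5, 81.8 and 37.6 CPM in MII. It fell by 2.51 ± 0.75 in Nat10-ZcKO (adjusted p = 0.0398) and by 5.73 ± 0.62 in WT without MII replicate 2 (adjusted p = 2.1e-06), and the difference between these 2 values is given with the genotypes below.
Cct3, the gamma subunit, had 406, 301 and 322 CPM in WT GV and 59.3 CPM in WT MII replicate 1, and fell by 2.04 ± 0.63 in Nat10-ZcKO (adjusted p = 0.0453).

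Cct5 and Cct8, further subunits of the ring, fell by 1.82 ± 0.40 and 1.32 ± 0.38 in WT without MII replicate 2 (adjusted p = 0.0019 and 0.0100). In Nat10-ZcKO their log2 differences were -1.83 ± 0.81 and -1.74 ± 0.70 and did not pass (adjusted p = 0.119 and 0.0937), with GV values of 803, 58.0 and 346 CPM for Cct5 that span those of MII (122, 177 and 75.1 CPM). The library at 803 CPM is Nat10-ZcKO GV replicate 1, which stands apart. Without Nat10-ZcKO GV replicates 1 and 2 the log2 differences of Cct5 and Cct8 were -1.80 ± 0.51 and -1.81 ± 0.50. Cct7 had log2 differences of -1.19 ± 0.49 and -1.60 ± 0.70 in the same fits (adjusted p = 0.0566 and 0.116). Cct4 was not called in any stage fit shown here, with 27.5, 53.7 and 83.2 CPM in WT GV and 74.2 CPM in WT MII replicate 1. Its Nat10-ZcKO values, 212, 19.3 and 43.3 CPM in GV and 47.9, 54.5 and 18.8 CPM in MII, also overlapped. Cct6b and Cct8l1 had no count in any library.

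J-domain genes moved in both directions. Dnajc9 had 309, 372 and 468 CPM in WT GV and 22.2 CPM in WT MII replicate 1. In Nat10-ZcKO it went from 189, 213 and 375 CPM to 5.32, 68.2 and 18.8 CPM and fell by 3.44 ± 0.92 (adjusted p = 0.0296). Dnajc7, which bridges HSP70 and HSP90, had 234, 318 and 312 CPM in WT GV and 51.9 CPM in WT MII replicate 1, and its 208 CPM in WT MII replicate 2 was 1 count.
It fell by 2.71 ± 0.77 in Nat10-ZcKO (adjusted p = 0.0338), from 165, 174 and 375 CPM to 53.2, 68.2 and 25.0 CPM. Dnaja3, a mitochondrial J-domain protein, had 199, 250.5 and 208 CPM in WT GV and 14.8 CPM in WT MII replicate 1. Its log2 difference was -3.76 ± 0.63 in WT without MII replicate 2, and -2.40 ± 0.68 in Nat10-ZcKO without GV replicates 1 and 2. Dnaja2 had -1.34 ± 0.41 and -1.03 ± 0.55 in the same fits, and -0.72 ± 0.71 in Nat10-ZcKO with all libraries (adjusted p = 0.458). Dnajc3, the ER co-chaperone, moved opposite to Hspa5 and Hsp90b1 in WT.
It had 61.9, 71.6 and 104 CPM in WT GV and 185 CPM in WT MII replicate 1, and rose by 1.35 ± 0.45 without WT MII replicate 2 (adjusted p = 0.0234). In Nat10-ZcKO its 23.6, 213 and 36.1 CPM in GV overlapped its 271, 88.6 and 125 CPM in MII (log2 difference 0.70 ± 0.81, adjusted p = 0.527), and the high GV value is replicate 2, which stands apart. Dnajc8, a J-domain protein bound to the splicing machinery, averaged 88.3 ± 19.7 CPM in WT GV, and Nat10-ZcKO MII averaged 97.3 ± 21.9 CPM (SD, n = 3 each), a difference below the spread. Its tests in WT without MII replicate 2 and in Nat10-ZcKO gave adjusted p = 0.754 and 0.908.

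Among HSP90 genes, Hsp90ab1 did not pass the stage test in either genotype. It had 887, 1220.2 and 947 CPM in WT GV and 1246 CPM in WT MII replicate 1, and 2361, 1025 and 664 CPM in Nat10-ZcKO GV and 1474, 791 and 1421 CPM in Nat10-ZcKO MII. The groups of Nat10-ZcKO overlap, and the log2 differences were 0.37 ± 0.27 in WT without MII replicate 2 (adjusted p = 0.266) and -0.18 ± 0.78 in Nat10-ZcKO (adjusted p = 0.874). Hsp90aa1, the stress-inducible cytosolic form, was lower at MII. It had 454, 590.4 and 645 CPM in WT GV and 44.5 CPM in WT MII replicate 1, and fell by 3.55 ± 0.45 without WT MII replicate 2 (adjusted p = 9.0e-06). In Nat10-ZcKO GV its 70.8, 38.7 and 426 CPM spanned the 74.5, 116 and 43.8 CPM of MII (log2 difference -1.83 ± 0.93, adjusted p = 0.164), and without GV replicates 1 and 2 it fell by 2.77 ± 0.52 (adjusted p = 1.6e-06).
Hsp90b1 had 1327, 1628 and 1862 CPM in WT GV and 801 CPM in WT MII replicate 1, and fell by 0.91 ± 0.27 in that comparison (adjusted p = 0.0131). Its Nat10-ZcKO MII values of 857, 872 and 619.9 CPM lay below the 1133, 1469.8 and 2097 CPM of Nat10-ZcKO GV, and the difference did not pass (-1.34 ± 0.81, adjusted p = 0.235). Without Nat10-ZcKO GV replicates 1 and 2 the log2 difference was -1.74 ± 0.47.

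Among HSP70 genes, Hspa5 was lower at MII. It had 1801, 2004 and 2069.9 CPM in WT GV and 1016 CPM in WT MII replicate 1, and fell by 0.86 ± 0.26 without WT MII replicate 2 (adjusted p = 0.0148). In Nat10-ZcKO it had 2549.6, 1025 and 2786 CPM in GV and 1250.2, 811 and 983 CPM in MII (-1.35 ± 0.86, adjusted p = 0.259). Its log2 difference was -1.77 ± 0.47 without Nat10-ZcKO GV replicates 1 and 2. Hspa14, a divergent HSP70 that works at the ribosome, was the gene with higher values at MII in Nat10-ZcKO. It had 0, 58.0 and 7.22 CPM in Nat10-ZcKO GV and 106, 211 and 68.9 CPM in Nat10-ZcKO MII, groups that do not overlap, with a log2 difference of 2.59 ± 0.94 (adjusted p = 0.0716). Without Nat10-ZcKO GV replicates 1 and 2 it rose by 3.72 ± 1.01 (adjusted p = 0.0013). In WT it had 61.9, 39.4 and 62.4 CPM in GV and 37.1 CPM in MII replicate 1. Hspa9, the mitochondrial HSP70, had 165, 265 and 166 CPM in WT GV and 148 CPM in WT MII replicate 1. The Nat10-ZcKO values were 614, 251 and 180.4 CPM in GV and 122, 157 and 125 CPM in MII (-1.41 ± 0.64, adjusted p = 0.126). Hspa4, an exchange factor of the HSP110 group, had log2 differences of -1.07 ± 0.49 in WT without MII replicate 2 (adjusted p = 0.0815) and -1.71 ± 0.72 in Nat10-ZcKO (adjusted p = 0.107). The heat-inducible Hspa1a had 2 counts and Hspa1b 12 over the 11 libraries.

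**Figure D4:**
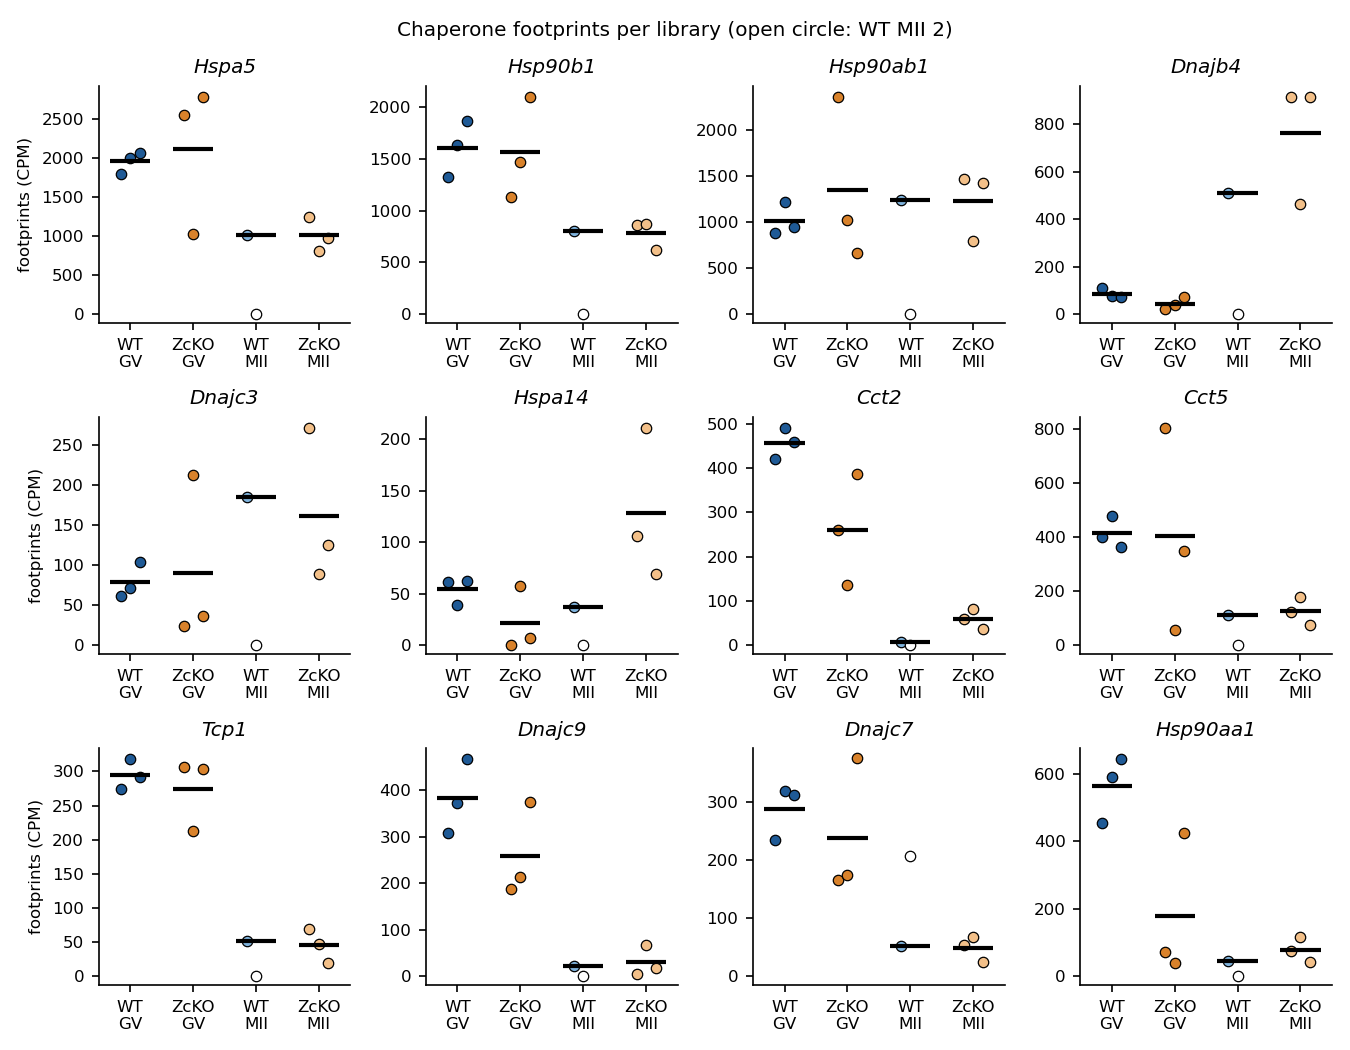
Footprints (CPM) of 12 chaperone genes in each Ribo-seq library by group; points are libraries, the open circle is WT MII 2, and bars are group means without it. Dnajb4 is at 463 to 915 CPM in the filled MII points and at most 110.0 CPM in GV, while Tcp1 is at most 69.2 CPM in MII and at least 213 CPM in GV.

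Stored mRNAs are often woken through the cytoplasmic polyadenylation element near the 3′ end, at which CPEB1 binds and the poly(A) tail is lengthened. The forms TTTTAT and TTTTAAT were searched on the sense strand of the last 100 bases of the annotated 3′ UTR (GENCODE M21, GRCm38), where 17.9% of 19353 genes held one. They were present in 14 of the 75 chaperone genes with a 3′ UTR of that length, among them Dnajb4 and Dnajc3, which rose, Hsp90ab1, which did not pass the test, and Dnajc9, which fell. None of the TRiC genes with footprints held one. A polyadenylation signal (AATAAA or ATTAAA) was present in 78.6% of all these 3′ UTR ends, but not in that of Dnajb4. The Dnajb4 end searched also lies inside the annotated gene, which runs on to chr3:152178511. These 3′ UTR windows of 30 bases show the element in capitals in genes of unlike stage behaviour.
Dnajb4, chr3:152183955-152183984, minus strand: tgagtcctatagtctTTTTAATagaatgtg
Dnajc3, chr14:118981646-118981675, plus strand: atatTTTTATgcccgtgtattttcacattt
Hsp90ab1, chr17:45567775-45567804, minus strand: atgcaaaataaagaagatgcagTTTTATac
Dnajc9, chr14:20384669-20384698, minus strand: aactTTTTATctacaagagtgagagccaaa

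Mitochondrial HSP60 (Hspd1) and HSP10 (Hspe1) are divergent neighbours on chromosome 1, and share a promoter that holds a heat shock element of 3 units. This element, at which heat shock factors bind, was searched as GAA, TTC and GAA separated by 2 bases each, on both strands. Of the chaperone genes 67 had a promoter in the RefSeq set above. The 15 without one, among them Hsp90aa1, Hsp90ab1, Hspa8 and Hspa9, were not searched. The element was present in 198 of 32851 promoters (0.603%), among those 67 genes in Hspd1, Hspe1 and Dnajb6. It is shown with its fixed bases in capitals, on the strand of Hspe1 and 84 bases before its start site. The same stretch lies in the promoters of both genes of the pair.
Hspd1 and Hspe1, chr1:55088044-55088096, plus strand: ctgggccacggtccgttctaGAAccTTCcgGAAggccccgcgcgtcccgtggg
Hspd1 had 34.4, 75.1 and 198 CPM in WT GV and 22.2 CPM in WT MII replicate 1. Its Nat10-ZcKO GV values were 189, 96.7 and 39.7 CPM. In Nat10-ZcKO MII it had 69.2, 20.4 and 18.8 CPM (log2 difference from GV -1.52 ± 0.74, adjusted p = 0.148). Hspe1 had at most 50.5 CPM in any library, and too few counts to pass the filter. Both are limited by copies in the genome, as described next.

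For several chaperones the low counts have to be read with the genome in mind, because a footprint is short and these genes have processed pseudogenes or near-identical paralogs. The coding sequence of each gene was cut into windows of 28 bases, and the share of windows found at 2 or more places of the 21 GRCm38 chromosomes was counted. This share was over 50% in 10 genes, over 10% in 22 and 0 in 49. It was 99.1% for Dnajb6, 95.4% for Hspa8, the constitutive cytosolic HSP70, 93.7% for Dnaja1, 91.9% for Hspa1a, 91.6% for Hsp90aa1, 89.4% for Hspa1b, 76.7% for Hspd1 and 74.2% for Hspe1. It was 25.2% for Hsp90ab1 and 16.8% for Cct3, and 0 for Hspa5, Hsp90b1, Dnajb4, Dnajc3, Dnajc7, Cct5 and Cct8.
The longer acRIP-seq fragments give a second reading of these genes, from other pools of WT GV oocytes. Their counts are summed here over the anti-ac4C and IgG libraries. Both are pull-downs, so the sum is not a measure of input RNA. Dnaja1 had 230 acRIP-seq counts but 2 footprints over the WT GV libraries, and Hspa8 had 368 against 47. The 6 genes with over 50% of windows copied and at least 50 acRIP-seq counts had a median of 12.4 WT GV footprints per 100 acRIP-seq counts, from 0.870 in Dnaja1 to 39.8 in Hspd1. The 8 genes with 10% to 50% copied had a median of 35.0, from 2.44 in Dnajc2 to 86.2 in Dnajc9. The 22 genes with at most 10% copied had a median of 29.4, from 1.59 in Dnajc14 to 334 in Hspa5, and all 4680 genes of that depth a median of 17.7. The part of dropped or shared reads in these low levels was not tested. Hspa8, at 34.4, 125 and 72.8 CPM in WT GV, and Dnaja1, at 0 to 10.4 CPM there, are therefore uncertain as levels, as are Hsp90aa1, Hspa1a and Hspa1b.

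The genotype comparison asked whether loss of Nat10 in the oocyte changed chaperone footprints. At the GV stage 21 chaperone genes were tested and none was called by edgeR, as was the case for 0% of 1765 genes tested. None of the 21 reached an unadjusted p under 0.05, beside 5.27% of all genes, and DESeq2 called none of them. Without Nat10-ZcKO GV replicates 1 and 2 none of 31 was called, and 3 reached an unadjusted p under 0.05, beside 14.3% of all genes. They were Hspa5 (0.71 ± 0.25, adjusted p = 0.150) and Hsp90b1 (0.59 ± 0.26, adjusted p = 0.272), with higher values in Nat10-ZcKO, and Hspa14 (-2.58 ± 1.22, adjusted p = 0.321). The 21 had a median log2 difference of 0.06, and all genes tested of -0.01. Hsp90aa1 had the smallest p among those lower in Nat10-ZcKO, with a log2 difference of -1.35 ± 0.81 (adjusted p = 0.908), and its values were 70.8 and 38.7 CPM in replicates 1 and 2 but 426 CPM in replicate 3, beside 454 to 645 CPM in WT.
The 2 low values are those of the libraries that stand apart. Without Nat10-ZcKO GV replicate 3, Hsp90aa1 was the 1 chaperone gene of 22 called, as lower, as were 8.99% of all 1858 genes tested. With replicate 3 kept and replicates 1 and 2 left out, its log2 difference was -0.19 ± 0.32 (adjusted p = 0.854). Dnaja2 and Dnaja3 had log2 differences of -0.97 ± 0.59 and -0.77 ± 0.58, and all 3 Nat10-ZcKO values of each lay below the WT values. In all, 5 of the 21 (Cct2, Dnaja2, Dnaja3, Dnajc13 and Hsp90aa1) lay below WT without overlap and 1 (Hspa4) above, against 12.8% and 3.23% of all genes tested. Dnaja2 had 426, 304 and 343 CPM in WT, against 212, 77.4 and 206 CPM in Nat10-ZcKO.
Hspa9, Hspa4 and Dnajb1, the main J-domain partner of HSP70 in heat shock, had the smallest p among those higher (0.87 ± 0.62, 0.71 ± 0.52 and 0.44 ± 0.63, adjusted p = 0.908 each). Without Nat10-ZcKO GV replicates 1 and 2 these values were 0.01, 0.50 and 0.05, and without replicate 1 alone, which had 614 CPM, Hspa9 was at 0.20. Hspa4 had 137, 139.6 and 177 CPM in WT and 236, 251 and 184 CPM in Nat10-ZcKO, without overlap. Dnajb1 had 82.5, 85.9 and 114 CPM in WT and 47.2, 213 and 83.0 CPM in Nat10-ZcKO.

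At MII, 18 chaperone genes were tested and none was called by edgeR, against 0.191% of 2097 genes. None reached an unadjusted p under 0.05, beside 2.29% of all genes, and DESeq2 called none. Without WT MII replicate 2, none of 25 was called either, and 2 reached an unadjusted p under 0.05, both with higher values in Nat10-ZcKO, beside 5.47% of all genes. These were Hspa14, with 37.1 CPM in WT MII replicate 1 and 106, 211 and 68.9 CPM in Nat10-ZcKO (1.67 ± 0.83, adjusted p = 0.888), and Dnajc13, an endosomal J-domain protein, with 7.42 CPM and 122, 61.3 and 43.8 CPM (3.12 ± 1.43, adjusted p = 0.790). Dnajb4 had log2 differences of 1.16 ± 1.59 with both WT libraries and 0.51 ± 0.50 without replicate 2 (adjusted p = 0.997 and 1.0). Leaving out WT MII replicate 1 instead, so that the 4815 counts of replicate 2 stood alone, gave 12 of 22 genes higher, beside 47.3% of all genes tested, with a median log2 difference of 6.70 for them and 6.52 for all genes tested. Dnajc7, Hspa13, an HSP70 of the microsomes, and Cct7 had the smallest p among those lower (-0.41 ± 1.03, -0.41 ± 0.97 and -0.07 ± 0.92, adjusted p = 0.997 each), and each turned positive in at least 3 alternative fits.

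Whether the stage difference itself differed between the genotypes was tested with the interaction of stage and genotype over the 11 libraries. No chaperone gene of 30 was called by edgeR or DESeq2, against 0.802% of 3863 genes, and 2 of the 30 reached an unadjusted p under 0.05 with edgeR and 3 with DESeq2, beside 5.51% and 7.38% of all genes. The 2 were Hspa14, which differed by 4.15 ± 1.65 on the log2 scale (adjusted p = 0.540), and Dnajc13, by 4.59 ± 1.84 (adjusted p = 0.554). Cct2 differed by 4.24 ± 2.17 (adjusted p = 0.789), and without WT MII replicate 2 by 3.75 ± 1.63 (adjusted p = 0.970). Positive values mean a higher MII to GV ratio in Nat10-ZcKO than in WT.

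Genes that work with these chaperones were read from lists of 65 symbols, all of them in the files. In Nat10-ZcKO 34 were tested between stages, in a fit where 9.98% of all genes tested rose and 6.56% fell. Of the 34, none rose and 3 fell. They were Fkbp4, an HSP90 co-chaperone (-3.28 ± 0.81, adjusted p = 0.0233, and -1.39 ± 0.82 with adjusted p = 0.162 without GV replicates 1 and 2), Trap1, the mitochondrial HSP90 (-3.25 ± 0.71, adjusted p = 0.0177), and Pfdn1, a subunit of prefoldin, which hands actin and tubulin to TRiC. Pfdn1 had 26, 70 and 19 counts in WT GV and 0 in both WT MII libraries, and 3, 5 and 70 counts in Nat10-ZcKO GV and 2, 0 and 0 in Nat10-ZcKO MII (adjusted p = 0.0145).
Without WT MII replicate 2, which leaves 1 MII library, 42 of them were tested in WT. Their median log2 difference was -0.99, beside -0.35 for all genes tested. Of the 15 chaperonin cofactors and prefoldin subunits 11 were tested, with a median of -1.40. Among them Pfdn1, Pfdn2, Pfdn5 and the tubulin cofactor Tbcb were lower at MII, and Pfdn4, Pdcl and Pdcl3 higher. Pfdn4 had 12, 5 and 3 counts in WT GV and 30 in WT MII replicate 1, and 0, 5 and 15 counts in Nat10-ZcKO GV and 66, 47 and 54 in Nat10-ZcKO MII, and rose by 2.50 ± 0.62 in WT without MII replicate 2 (adjusted p = 0.0042). Of the 26 HSP70 and HSP90 co-chaperones 16 were tested, with a median of -0.72. Stip1, which links HSP70 to HSP90, was lower by 1.76 ± 0.41, while Tomm34 was higher at MII. In the ER list of 12, 10 were tested, with a median of -0.08, and Calr (-2.00 ± 0.29) and Pdia3 were lower. Of the 7 mitochondrial genes 4 were tested, with a median of -1.36, and Trap1 was lower. Of 4 heat shock factors and Hsbp1, which binds them, only Hsbp1 had enough counts for the stage tests, and it was not called (log2 difference -1.05 ± 0.59 in WT without MII replicate 2, adjusted p = 0.148). Hsf1, the main heat shock factor, had 0 to 14 counts per library outside WT MII replicate 2, which held 45, and was not tested between stages. It was the 1 related gene called in the interaction of stage and genotype (-6.32 ± 1.61, adjusted p = 0.0198), but not without WT MII replicate 2 (-2.77 ± 1.59, adjusted p = 0.970). In the genotype fits with all libraries none of the 65 was called at either stage, at 30 tested in GV and 29 in MII. Leaving out Nat10-ZcKO GV replicates 1 and 2 changed this reading, with 1 library left in that group. The co-chaperone Hsph1 was then higher in Nat10-ZcKO GV, with 206 counts in replicate 3 beside 30, 104 and 55 in WT GV. It had 5 and 18 counts in replicates 1 and 2. For stage in Nat10-ZcKO, the median log2 difference of the related genes tested went from -0.93 to -1.23. That of all genes tested went from -0.12 to 0.11, and that of the chaperonin cofactors and prefoldin subunits from -0.70 to -2.29. The stage calls given above for Nat10-ZcKO are those of the fit with all libraries, and they changed without GV replicates 1 and 2.

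The acRIP-seq comparison asked which chaperone mRNAs were recovered with the anti-ac4C antibody more than with IgG in WT GV oocytes. There was 1 library of each, with 970997 and 116232 gene counts, so ratios carry a counting interval and no test. Over the 82 genes the ratio of CPM was 1.02, with a 95% interval of 0.960 to 1.08. TRiC genes together had 1.19 (1.02 to 1.40), Dnajc genes 1.15 (1.02 to 1.29), HSP90 genes 0.920 (0.820 to 1.03) and HSP70 genes 0.756 (0.660 to 0.870). Of 63 chaperone genes with a count in either library 29 exceeded a ratio of 2, as did 53.3% of the 11883 genes with a count. Of those 29, 19 had no IgG count and 8 had under 10 counts in all.

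With the lower interval bound above 2, 4 chaperone genes remained, beside 3.69% of all genes with a count. Dnajb4 had 236 counts with the anti-ac4C antibody against 4 with IgG, a ratio of 7.06 (2.72 to 26.1). Dnajc13 had 205 and 5 counts, a ratio of 4.91 (2.07 to 15.3), and Dnajc3 224 and 6, a ratio of 4.47 (2.02 to 12.3). Dnajc10, an ER reductase with a J domain, had 66 counts and none with IgG, a ratio of at least 2.63 when 3 counts are set for the IgG library. Dnaja3 had the highest ratio with an IgG count, 10.8, from 90 counts and 1, with a lower bound of 1.89.
At the other end, the upper bound was below 1 in 9 genes. Of the 36 chaperone genes with at least 50 counts this held for 7, and of all genes of that depth for 19.2%. Hspa5 had 249 and 57 counts, a ratio of 0.523 (0.391 to 0.710), and Hspa8 281 and 87, a ratio of 0.387 (0.303 to 0.498). Hsp90ab1 had 1094 and 189 counts, a ratio of 0.693 (0.593 to 0.813). Dnajc7 had 0.495 (0.364 to 0.684), Dnaja1 0.400 (0.293 to 0.554) and Dnajb2, a J-domain protein that binds ubiquitin, 0.347 (0.202 to 0.618). Dnajc17, a nuclear J-domain protein, had 0.202 (0.111 to 0.376), Dnajc5b 0.259 (0.0920 to 0.832) and Hspa2, a testis-rich HSP70, 0.0599 (0.0184 to 0.172).

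**Figure D5:**
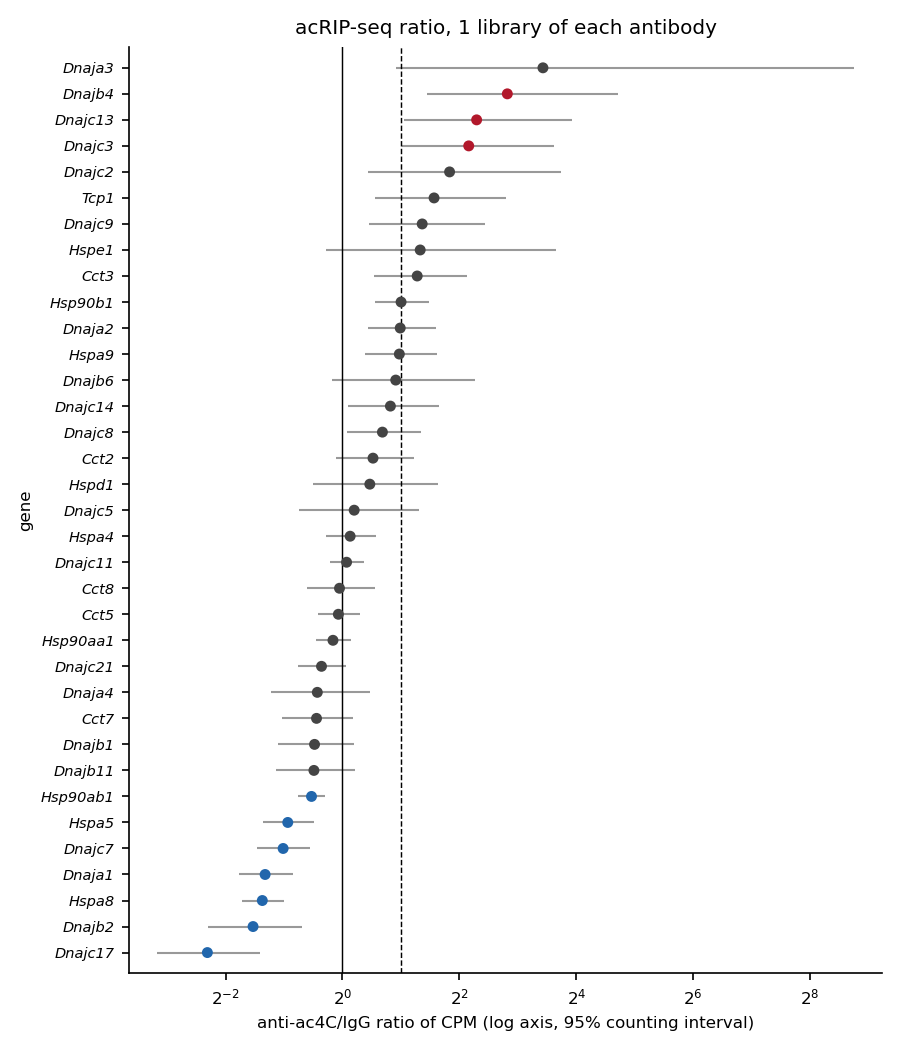
Ratio of CPM in the anti-ac4C library to the IgG library, on a log axis, for the 35 chaperone genes with at least 50 counts over both and at least 1 IgG count; bars are 95% counting intervals, and lines mark ratios of 1 and 2 (dashed). Dnajb4, Dnajc13 and Dnajc3 have bounds above 2, and Hsp90ab1, Hspa5, Dnajc7, Dnaja1, Hspa8, Dnajb2 and Dnajc17 have bounds below 1.

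Members of the same complex differed in ratio. Among TRiC genes, Tcp1 had 2.96 (1.47 to 6.96) and Cct3 2.43 (1.45 to 4.39), whose intervals lie above 1, while Cct2 had 1.44 (0.929 to 2.33), Cct5 0.953 (0.746 to 1.23), Cct8 0.966 (0.659 to 1.46) and Cct7 0.735 (0.491 to 1.14), whose intervals include 1. In the ER, Hsp90b1, with 703 and 42 counts, had an interval of 1.47 to 2.80 and Hspa5 one of 0.391 to 0.710, which do not overlap. Among the cytosolic HSP90 genes, Hsp90aa1 had 0.894 (0.727 to 1.11) and Hsp90ab1 0.693, and their intervals overlap. The 36 chaperone genes with at least 50 counts had a median ratio of 1.27, and the 4680 genes of that depth the same median of 1.27.

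Set beside the stage results, Dnajb4 and Dnajc3 are both among the 4 with a lower bound above 2. They rose by 2.64 ± 0.37 and 1.35 ± 0.45 in WT without MII replicate 2. Dnajc13, also among these 4, fell by 3.98 ± 0.88 in that comparison. Hspa14, with higher values at MII in Nat10-ZcKO, had a lower bound of 1.30. How many of all genes higher at MII have such a bound was not counted, so no link is read from this. Dnajc10 had 17 footprints over the 11 libraries, at most 3 in any of them, and was too low for the stage tests with all libraries.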

How the data were processed

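Per the labels and the methods, footprints were released with RNase I from cycloheximide-treated oocytes, made into libraries without ligation and sequenced, and the submitters' processing notes name cutadapt, STAR, HTSeq and the build mm10. The authors deposited raw counts per gene, on coding sequences for 11 Ribo-seq libraries and on genes for 2 acRIP-seq libraries. Whether strand or multiply mapped reads were counted is not given in the sources used here. Ensembl IDs were matched to symbols with GENCODE M21 (GRCm38). In the IgG and anti-ac4C files, 46.7% and 17.1% of fragments were listed on no feature and 0.392% and 0.750% as ambiguous, and these were left out.

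Shares, CPM and TPM (by coding length) were computed from the counts. Groups were compared with the quasi-likelihood test of edgeR 4.0.16 (R 4.3.3) on the libraries of each comparison, over all genes passing filterByExpr, with TMM scaling and a prior count of 0.125, and a gene was called at a Benjamini-Hochberg adjusted p under 0.05. DESeq2 1.42.0, library size scaling, no filter, 1 fit of all libraries, a replicate block and leaving out libraries were the alternatives. Both tools were tested on simulated data. SEs are of the log2 difference. Intervals of shares are exact binomial and those of acRIP-seq ratios exact conditional, at 95%, with scipy 1.17.1 (Python 3.11.15). They and the limit of 3 counts for a count of 0 cover counting error only. Replicate numbers did not pair libraries and were no block in the reported fits. Named genes were the 12 members with the highest TPM in WT GV and in Nat10-ZcKO MII, members called in any fit, the 3 with the smallest p in each direction, and those with acRIP-seq bounds above 2 or below 1. Fixed pairs (Hspa1a and Hspa1b, Hsp90aa1 and Hsp90ab1, Hspa5 and Hspa8, Hspd1 and Hspe1) and TRiC genes were added. Members, lists and rules were chosen with earlier results of these data known.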

Additional observations from a re-analysis of the deposited data

Results flagged for a closer look

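For 2 genes the genotypes were apart without overlap in opposite directions at the 2 stages, WT MII replicate 2 set aside. Of all genes tested, 12.8% lay below WT without overlap in GV, and 31.6% above WT in MII with that replicate set aside. How many genes did both was not counted. Dnajc13 had 137, 107 and 177 CPM in WT GV and 23.6, 96.7 and 97.4 CPM in Nat10-ZcKO GV, but 7.42 CPM, or 1 count, in WT MII replicate 1 and 122, 61.3 and 43.8 CPM in Nat10-ZcKO MII. Its stage difference was larger by 4.59 on the log2 scale in Nat10-ZcKO than in WT, and the edgeR interaction test did not pass (adjusted p = 0.554). Cct2 had 419 to 490.2 CPM in WT GV and 135 to 386 CPM in Nat10-ZcKO GV, but 7.42 CPM, or 1 count, in WT MII replicate 1 and 37.6 to 81.8 CPM in Nat10-ZcKO MII. Its difference of 4.24 did not pass either (edgeR, adjusted p = 0.789). Both rest on a single count in 1 WT MII library.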

How the results depend on the processing

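Depth sets the limits. WT MII had 1 library of usable depth, so WT values at MII have no replicate check, and the filter left 18 to 30 of 82 genes in the fits with all libraries. Of the alternatives for named genes, 194 kept direction and side of the threshold, 26 gained and 38 lost a call, and 19 turned direction. The cause was not tested in any of these.

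The number of genes called ranged over single left-out libraries from 0 to 1 for genotype in GV, 0 to 12 for genotype in MII, 0 to 25 for stage in WT (none with all libraries; 2 without WT GV replicate 1, 25 without WT MII replicate 1 and 15 without WT MII replicate 2), 0 to 7 for stage in Nat10-ZcKO (6 with all libraries, 2 without GV replicate 3) and 0 to 14 for the interaction, its 14 and the 12 coming without WT MII replicate 1. For stage in WT, DESeq2 called 17, beside 844 of all 2045 genes tested lower and 47 higher. Library size scaling called 11, beside 654 lower and 343 higher. For stage in Nat10-ZcKO, no filter gave 3, all libraries in one fit 1, omission of GV replicates 1 and 2 gave 16, and the replicate block 2. Same-numbered libraries deviated together with correlations of -0.0224 to 0.131, so the numbers were not taken as pairs, and the block changed no other count of calls.

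The chaperone share became 0.776%, 0.776% and 0.474% of TPM in WT GV, Nat10-ZcKO GV and Nat10-ZcKO MII, 0.835% in WT GV without Hspa5, and 1.49% and 0.879% of TMM effective library size in WT GV and Nat10-ZcKO MII. With at least 10 counts, 17.5 genes were detected per library, in place of 43.7. Of acRIP-seq ratios, 11 of 36 were above 2 with at least 50 counts, beside 32.8% of all genes of that depth. By the lower bound 4 of 63 were, beside 3.69% of all genes with a count. Without scaling to library size 58 of 63 were, beside 90.8%.

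Directions turned as follows, in log2. For genotype in GV, Dnajb1 was -0.0373 without the filter and -0.29 to 0.63 over single left-out libraries, lowest without Nat10-ZcKO GV replicate 2. For genotype in MII, without the filter and in one fit of all libraries, Cct7 was 0.57 and 0.65, Dnajc7 0.20 and 0.31, and Hspa13 0.18 and 0.25, and Cct7 was 0.13 with the replicate block and 0.0049 without Nat10-ZcKO MII replicate 2. Over single left-out libraries Cct7 ranged from -0.22 to 6.32, Dnajc7 from -0.20 to 0.57 and Hspa13 from -0.58 to 5.82, each highest without WT MII replicate 1. For stage in WT, Cct4 was -0.48 with DESeq2, -0.32 without the filter and -0.24 in one fit, and over single left-out libraries Cct4 ranged from -5.92 to 0.58, Dnajb4 from -6.63 to 2.64 and Dnajc3 from -6.45 to 1.50, each lowest without WT MII replicate 1.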
